A study of Homo sapiens with 6 samples.

Results

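The genes described here are those of the proteasome and its activators, regulators and assembly chaperones: all rows of the deposited table whose symbol is PSM, a letter A to G and a number. There were 46 such genes of 18678. They were compared in Cal27-shGRK2 cells, a derivative of Cal27 carrying a short hairpin RNA against GRK2 (G protein-coupled receptor kinase 2, symbol ADRBK1 in the table), and in Cal27 cells, an established human line of tongue squamous carcinoma. Both were grown in serum-supplemented DMEM with no further treatment, and polyadenylated RNA was sequenced from 3 libraries per group by their titles. The labels name no control hairpin for the Cal27 libraries, and give neither the number of hairpins or clones behind Cal27-shGRK2 nor whether the libraries came from separate cultures, so the p-values measure the spread between these libraries, which may be technical.

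The Cal27-shGRK2 columns of replicates 0 and 1 were the same in each of the 18678 genes. They were counted as 1 library, called here the shared library, which left 2 Cal27-shGRK2 libraries and 3 Cal27 libraries. GRK2 itself had 17.3 and 16.6 FPKM (fragments scaled to transcript length and library size) in Cal27-shGRK2 cells, against 55.3, 59.4 and 55.8 FPKM in Cal27 cells, a log2 fold change of -1.69 ± 0.06 (SE, limma adjusted p = 3.77e-11). Because of the scaling to length, levels of different genes can be set side by side. The read depth per library is unknown. Summed FPKM ranged from 590163 to 615468 in Cal27-shGRK2 libraries and from 613330 to 644831 in Cal27 libraries.

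The proteasome is the protease that degrades most ubiquitin-tagged proteins of the cytosol and nucleus. Its 20S core is a barrel of alpha rings, which gate the entrance, around beta rings, in which PSMB5, PSMB6 and PSMB7 hold the active sites. The 19S cap recognises ubiquitin chains, removes them, and unfolds the substrate with a ring of ATPases (PSMC) held by non-ATPase subunits (PSMD). In cells exposed to interferon-gamma, newly built barrels take up PSMB8, PSMB9 and PSMB10 in place of PSMB5, PSMB6 and PSMB7, and the cap made of PSME1 and PSME2 (PA28 alpha and beta) becomes more abundant. The resulting immunoproteasome is known for cutting peptides that suit presentation on HLA class I molecules. In epithelial cells its subunits are also made at a basal level.

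The promoters of these 5 inducible genes are shown because interferon-responsive elements near the start of transcription are their best-known regulatory sequences, and because PSMB8 and PSMB9 were the genes of the 5 that passed the test in these cells. Each window runs from 250 bases before to 50 bases after the start that RefSeq gives on GRCh38.p14, on the gene's own strand: chr6:32843998-32844297 for PSMB8 (minus strand), chr6:32853942-32854241 for PSMB9 (plus strand), chr16:67936801-67937100 for PSMB10 (minus strand), chr14:24135944-24136243 for PSME1 (plus strand) and chr14:24146561-24146860 for PSME2 (minus strand). Capitals mark the core of an interferon-stimulated response element (ISRE, searched on both strands as GAAA, any 2 bases and GAAA) or, in PSMB8 alone of the 5, a gamma-activated site (GAS, TTCNNNGAA, the same pattern on both strands).
PSMB8: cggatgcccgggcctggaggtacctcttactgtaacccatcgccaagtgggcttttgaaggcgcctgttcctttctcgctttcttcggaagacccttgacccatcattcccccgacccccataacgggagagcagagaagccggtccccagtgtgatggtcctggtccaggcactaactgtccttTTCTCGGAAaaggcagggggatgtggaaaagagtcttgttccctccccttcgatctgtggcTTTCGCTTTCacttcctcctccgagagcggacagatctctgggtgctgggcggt
PSMB9: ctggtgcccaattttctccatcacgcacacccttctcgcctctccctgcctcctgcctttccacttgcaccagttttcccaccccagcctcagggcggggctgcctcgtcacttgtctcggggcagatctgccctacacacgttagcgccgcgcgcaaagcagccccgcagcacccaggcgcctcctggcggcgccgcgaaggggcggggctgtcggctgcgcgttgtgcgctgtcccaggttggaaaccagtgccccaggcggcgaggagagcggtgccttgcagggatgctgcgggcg
PSMB10: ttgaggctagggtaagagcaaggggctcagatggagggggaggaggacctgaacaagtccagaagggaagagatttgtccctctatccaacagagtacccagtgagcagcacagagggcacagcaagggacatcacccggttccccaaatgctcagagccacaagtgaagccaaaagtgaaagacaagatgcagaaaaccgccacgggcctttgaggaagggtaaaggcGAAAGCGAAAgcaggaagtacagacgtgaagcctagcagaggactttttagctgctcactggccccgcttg
PSME1: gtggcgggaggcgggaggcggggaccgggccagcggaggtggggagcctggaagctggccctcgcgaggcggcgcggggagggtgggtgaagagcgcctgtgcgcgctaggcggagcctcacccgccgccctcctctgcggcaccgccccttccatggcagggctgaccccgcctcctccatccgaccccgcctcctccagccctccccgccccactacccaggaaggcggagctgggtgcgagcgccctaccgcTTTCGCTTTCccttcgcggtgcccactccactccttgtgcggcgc
PSME2: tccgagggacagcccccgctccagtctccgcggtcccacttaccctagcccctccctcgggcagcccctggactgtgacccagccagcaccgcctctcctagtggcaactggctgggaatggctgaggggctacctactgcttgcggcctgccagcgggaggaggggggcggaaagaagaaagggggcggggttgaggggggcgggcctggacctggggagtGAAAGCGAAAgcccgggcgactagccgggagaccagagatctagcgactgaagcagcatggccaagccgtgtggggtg
The ISRE core was found in 4 of these 5 windows, and in each of the 4 its letters were GAAAGCGAAA on one strand or the other. Counted from the start of transcription as 0, it began at -4 in PSMB8, at -21 in PSMB10, at 5 in PSME1 and at -28 in PSME2. The GAS pattern of PSMB8 began at -65 and did not overlap the ISRE core. The PSMB9 window held neither pattern, and nor did the window of a second PSMB8 start, at chr6:32844630-32844929. That PSMB9 window lies inside the bounds that GENCODE 29 gives PSMB9 (chr6:32844136-32859585). It also holds the start of the minus-strand gene TAP1, at 32853978. No window at the outer PSMB9 start is shown. RefSeq windows were matched for 40 of the 46 genes, which had 49 windows, and 7 of the 49 (14.3%) held the ISRE core, against 3.57% of all 35116 windows. The others were those of PSMA4, PSMB4 and PSMG4, which encode constitutive subunits and an assembly chaperone. The GAS pattern was found in 14.3% of the 49 windows and in 7.66% of all windows. A match describes these letters only.

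Most proteasome genes differed little between Cal27-shGRK2 and Cal27 cells. All 46 passed the filter of a mean of at least 1 FPKM, with single values between 23.4 FPKM (PSME4) and 634 FPKM (PSMB7). PSMB8, PSMB9 and PSMG3 rose, PSMD10 and PSME3 fell, and 41 genes did not pass the test (limma on log2(FPKM + 1), Benjamini-Hochberg adjusted p below 0.05 over 13377 genes). The 5 genes called are 10.9% of the 46, against 29.6% of all genes tested (15.0% were higher and 14.6% lower). The median log2 fold change of the 46 genes was -0.008, beside -0.005 over all genes. The median size of the change, whatever its sign, was 0.07 for the proteasome genes and 0.14 for all genes, and 2 of 46 (4.35%) were beyond 0.25 on the log2 scale, against 27.5% of all genes. The proteasome genes also had higher levels, with median mean FPKM of 159 in Cal27-shGRK2 and 155 in Cal27 cells. Over all genes tested these medians were 11.4 and 11.3. The median SE was 0.063 for the proteasome genes and 0.08 for all genes. The part of level in these contrasts was not tested. Groups were apart, with no overlap of single libraries, in 8 proteasome genes that were higher (25.9% of all genes) and 9 that were lower (27.4% of all genes). Together these were 37.0% of the 46, against 53.3% of all genes.

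The count depends on how the libraries are scaled. With every library brought to a common total of 1000000, 9 proteasome genes were called higher and 2 lower, and over all genes 2850 were then called higher and 1512 lower, against 2008 and 1949 with FPKM as deposited. The added genes were PSMB2, PSMB7, PSMC5, PSMD2, PSMD11 and PSMD13, at log2 fold changes of 0.13 to 0.20.

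**Figure D1:**
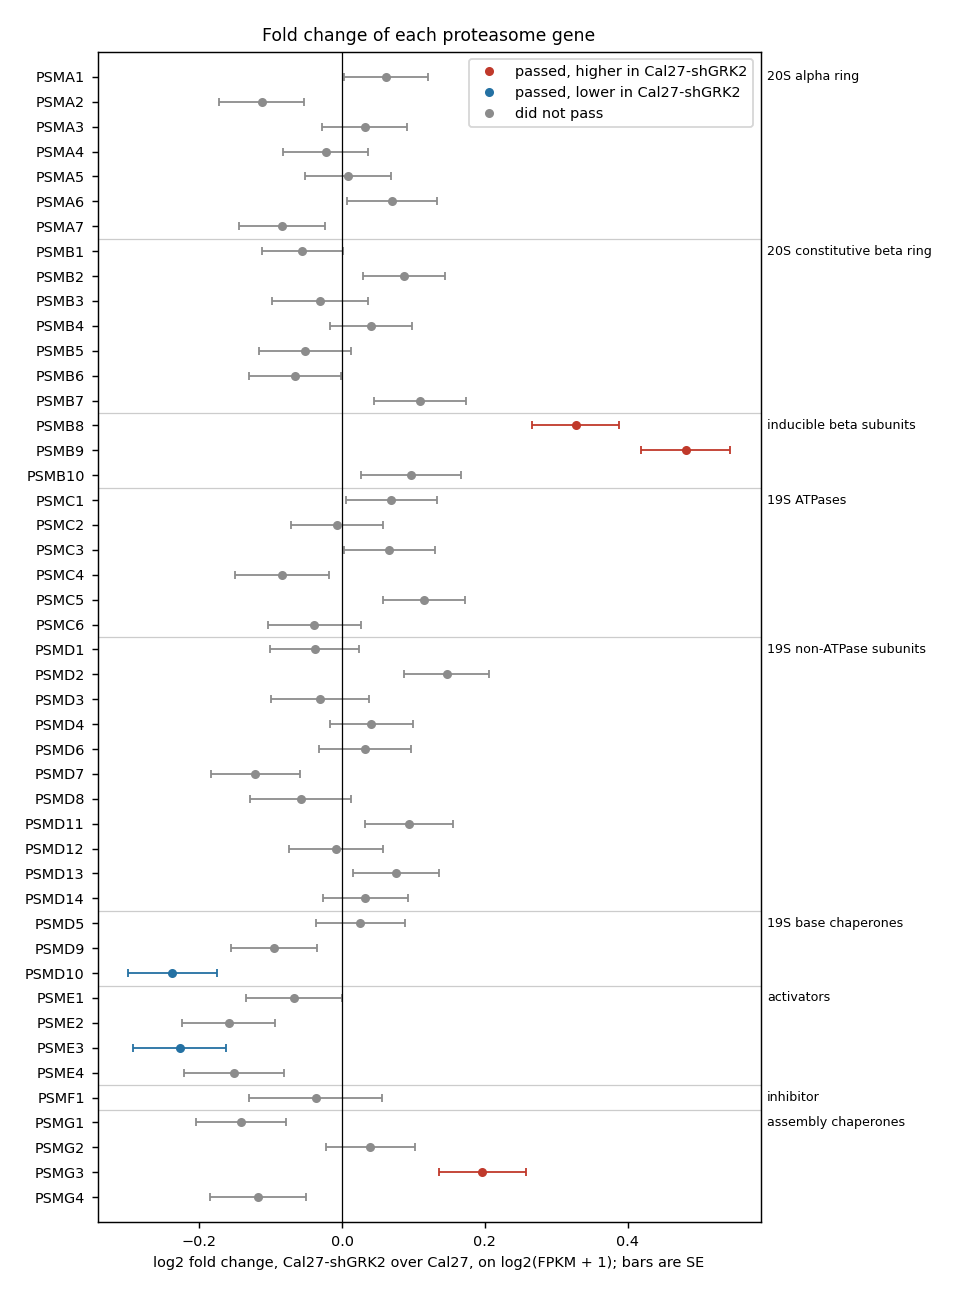
Log2 fold change of Cal27-shGRK2 over Cal27 (horizontal axis) for the 46 proteasome genes, grouped by role, with bars for the SE from limma. PSMB9 at 0.48 and PSMB8 at 0.33 stand to the right of all others, and PSMD10 at -0.24 and PSME3 at -0.23 furthest to the left.

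A difference between the Cal27-shGRK2 libraries ran through the whole family. In 43 of 46 proteasome genes (93.5%) the value of replicate 2 was above that of the shared library, by a median of 0.10 on the log2 scale, against 70.2% of all genes and a median of 0.055. This gap is larger than the fold change of most proteasome genes, and its part in the results was not tested. Ratios between proteasome genes within a library, given below, do not contain it where both genes share it.

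Of the inducible beta subunits, PSMB8 and PSMB9 were higher in Cal27-shGRK2 cells and PSMB10 did not pass the test. PSMB9 (LMP2, which takes the place of PSMB6) had 127.8 and 142.3 FPKM in Cal27-shGRK2 cells, against 95.8, 96.1 and 97.1 FPKM in Cal27 cells. The groups did not overlap, and the means were 135.0 ± 10.3 FPKM (SD, n = 2) and 96.3 ± 0.677 FPKM (SD, n = 3), a ratio of 1.40. Its log2 fold change of 0.48 ± 0.06 (SE, limma adjusted p = 2.93e-05, 95% interval 0.35 to 0.62) was the largest of the 46. PSMB8 (LMP7, which takes the place of PSMB5) had 143.0 and 154.4 FPKM in Cal27-shGRK2 cells, against 115.6, 122.0 and 117.2 FPKM in Cal27 cells. Every Cal27-shGRK2 library was again above every Cal27 library, with means of 148.7 ± 8.04 FPKM (SD, n = 2) and 118.3 ± 3.36 FPKM (SD, n = 3). The log2 fold change of PSMB8 was 0.33 ± 0.06 (SE, limma adjusted p = 7.89e-04, 95% interval 0.20 to 0.46).

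PSMB10 (MECL-1, which takes the place of PSMB7) had 63.0 and 68.3 FPKM in Cal27-shGRK2 cells, against 58.3, 66.4 and 59.4 FPKM in Cal27 cells. These ranges overlapped, and the log2 fold change was 0.10 ± 0.07 (SE, limma adjusted p = 0.336), with a 95% interval of -0.05 to 0.25 that overlaps the interval of PSMB8. It was 0.04 without Cal27-shGRK2 replicate 2 and 0.15 without the shared Cal27-shGRK2 library, and with a common total it was 0.15 (limma adjusted p = 0.0517). Whether PSMB10 differs from PSMB8 or PSMB9 in its change was not tested. PSMB10 was the lowest of the inducible subunits in both groups. PSMB8 was above PSMB9 in both groups with no overlap between libraries, but in Cal27-shGRK2 cells the lowest PSMB8 value, 143.0 FPKM, was close to the highest PSMB9 value, 142.3 FPKM.

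**Figure D2:**
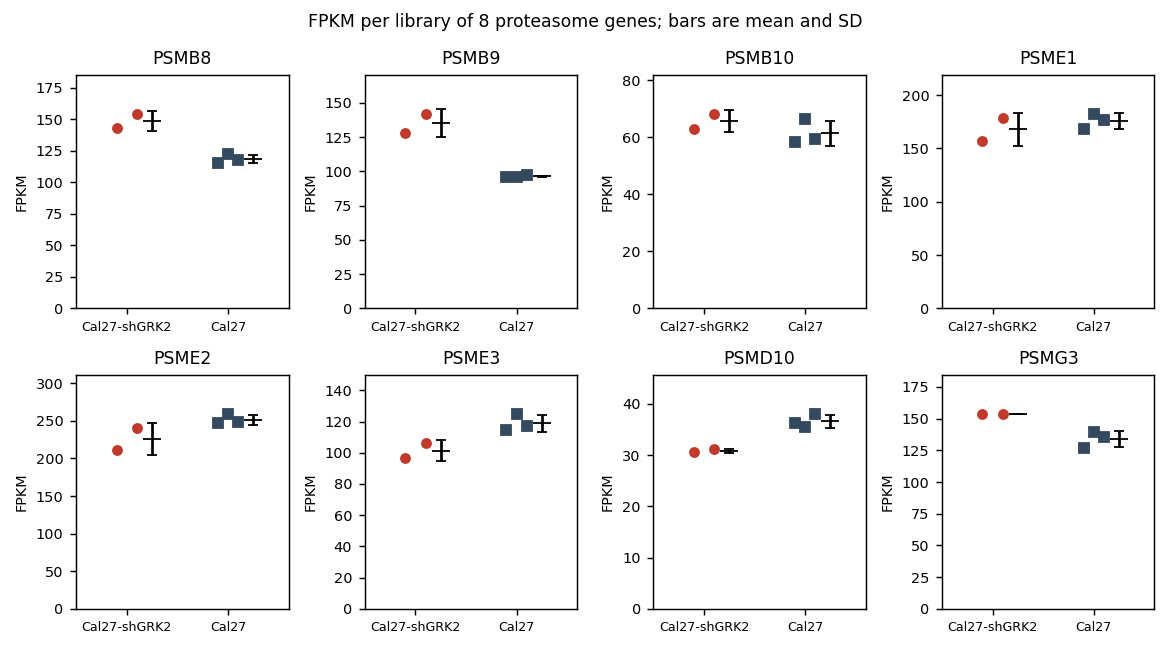
FPKM in each library of the 5 inducible genes and of PSME3, PSMD10 and PSMG3, with Cal27-shGRK2 points left of Cal27 points and bars for mean and SD. PSMB8, PSMB9 and PSMG3 are higher and PSME2, PSME3 and PSMD10 lower in every Cal27-shGRK2 library, while PSMB10 and PSME1 overlap.

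PSMB8 and PSMB9 lie beside each other in the HLA class II region of chromosome 6. In GENCODE 29, on the same hg38 build as the files, PSMB8 spans chr6:32840717-32844703 on the minus strand and PSMB9 spans chr6:32844136-32859585 on the plus strand. Their bounds share 568 bases, with exons of both on opposite strands there, and exons of PSMB8-AS1 (chr6:32844086-32846495, plus strand) overlap those of PSMB9 on the same strand. TAP1, a subunit of the peptide transporter, lies within the long form of PSMB9 at chr6:32845209-32853978 on the minus strand. All 4 genes share a single locus record in the deposited table. The library kit keeps the strand, but no source used here gives the strand setting of the authors' estimate, so some exchange of signal between these genes is uncertain. PSMB8-AS1 had 6.93 and 6.96 FPKM in Cal27-shGRK2 cells, against 5.64, 6.35 and 6.16 FPKM in Cal27 cells, and did not pass the test (limma adjusted p = 0.131). PSMB10 lies on another chromosome, at chr16:67934502-67937087 on the minus strand.

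Because an inducible subunit occupies the place of its constitutive counterpart, each pair was also set as a ratio within a library. PSMB9 over PSMB6 was 0.280 and 0.288 in Cal27-shGRK2 cells, against 0.204, 0.184 and 0.194 in Cal27 cells. PSMB8 over PSMB5 was 0.582 and 0.587 in Cal27-shGRK2 cells, against 0.465, 0.439 and 0.442 in Cal27 cells. In both pairs the Cal27-shGRK2 libraries stood above all Cal27 libraries. The differences in log2 ratio, taken on FPKM + 1, were 0.55 for PSMB9 over PSMB6 and 0.38 for PSMB8 over PSMB5, each with p = 0.1 in an exact two-sided permutation test over the 10 ways to divide 5 libraries, the smallest p that this design allows. PSMB10 over PSMB7 was 0.110 and 0.108 in Cal27-shGRK2 cells, against 0.109, 0.115 and 0.106 in Cal27 cells, so the groups overlapped (difference in log2 ratio -0.01, exact permutation p = 0.9). In every library the transcript of the constitutive subunit was above that of its inducible counterpart.

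**Figure D3:**
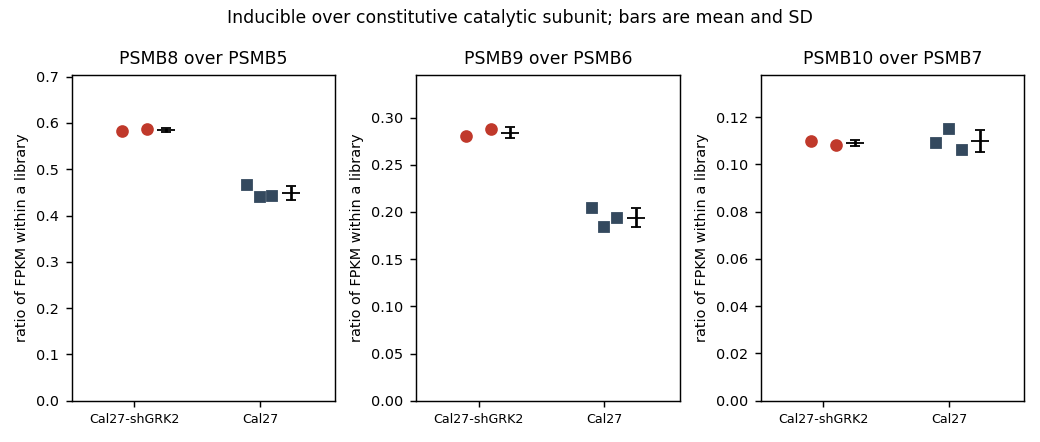
Ratio of the FPKM of each inducible subunit to that of the constitutive subunit it replaces, on a linear axis from 0, 1 point per library with mean and SD, and Cal27-shGRK2 left of Cal27. PSMB8 over PSMB5 and PSMB9 over PSMB6 are higher in both Cal27-shGRK2 libraries, and PSMB10 over PSMB7 overlaps.

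The active-site subunits of the constitutive core did not pass the test in either direction. PSMB5, with chymotrypsin-like activity, had 245.6 and 263.0 FPKM in Cal27-shGRK2 cells, against 248.3, 278.1 and 264.8 FPKM in Cal27 cells (log2 fold change -0.05, limma adjusted p = 0.600). PSMB6, with caspase-like activity, had 455.8 and 493.6 FPKM in Cal27-shGRK2 cells, against 469.1, 521.6 and 500.8 FPKM in Cal27 cells (log2 fold change -0.07, limma adjusted p = 0.489). PSMB7, with trypsin-like activity, had 570.7 and 634.2 FPKM in Cal27-shGRK2 cells, against 534.2, 578.4 and 561.7 FPKM in Cal27 cells (log2 fold change 0.11, limma adjusted p = 0.233). In each of these 3 genes the ranges of the groups overlapped.

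None of the 14 constitutive 20S genes (PSMA1 to PSMA7 and PSMB1 to PSMB7) passed the test, and none had an unadjusted limma p below 0.05. At that unadjusted threshold there were 9 of the 46 proteasome genes and 5258 of all 13377 genes tested. Their log2 fold changes lay between -0.11 (PSMA2) and 0.11 (PSMB7), 7 of them positive and 7 negative, and the 95% intervals together ran from -0.24 to 0.25. Changes of the size seen in PSMB8 and PSMB9 lie outside those intervals. With a common total of 1000000, PSMB2 (log2 fold change 0.14, limma adjusted p = 0.0263) and PSMB7 (0.17, adjusted p = 0.0199) passed. The median of the 14 genes was 342 and 363 FPKM in Cal27-shGRK2 libraries, against 364, 362 and 362 FPKM in Cal27 libraries. The alpha subunits, which form the outer rings, averaged 168 FPKM (PSMA5) to 428 FPKM (PSMA2) in Cal27-shGRK2 cells, and 167 FPKM (PSMA5) to 462 FPKM (PSMA2) in Cal27 cells. PSMA2 had 414.0 and 441.5 FPKM in Cal27-shGRK2 cells, against 475.8, 451.1 and 460.8 FPKM in Cal27 cells, with no overlap of the groups (limma adjusted p = 0.177). The beta subunits averaged 254 FPKM (PSMB5) to 602 FPKM (PSMB7) in Cal27-shGRK2 cells, and 264 FPKM (PSMB5) to 584 FPKM (PSMB4) in Cal27 cells.

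PSMB8, PSMB9, PSMB10, PSME1, PSME2, PSME3, PSME4, PSMD10 and PSMG3 were then set against the median of the 14 constitutive 20S genes of the same library. This measure takes out differences in scale that the core shares. PSMB8, PSMB9, PSME3, PSMD10 and PSMG3 had already been called from these libraries, so their separation here is not independent of those calls. Other proteasome genes are not given by this measure, so no share of separated genes can be set beside it. PSMB9 was 0.52 higher and PSMB8 0.36 higher on the log2 scale in Cal27-shGRK2 than in Cal27 cells by this measure, and the groups did not overlap. PSMB10, at 0.13, and PSME1, at -0.03, had overlapping groups. PSME2, at -0.12, PSME3, at -0.19, and PSMD10, at -0.20, were lower with no overlap. PSMG3, at 0.23, was higher with no overlap, and PSME4, at -0.12, had overlapping groups.

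The activators, which cap the core in place of the 19S particle, all had negative fold changes, and PSME3 alone passed the test. PSME3 (PA28 gamma), which forms a cap of its own in the nucleus, had 96.7 and 106.2 FPKM in Cal27-shGRK2 cells, against 114.6, 125.0 and 116.9 FPKM in Cal27 cells. It was lower in both Cal27-shGRK2 libraries, by -0.23 ± 0.07 on the log2 scale (SE, limma adjusted p = 0.0157), but did not pass without the shared Cal27-shGRK2 library (adjusted p = 0.195). PSME2 (PA28 beta) had 210.8 and 240.7 FPKM in Cal27-shGRK2 cells, against 247.0, 259.4 and 248.8 FPKM in Cal27 cells. The groups did not overlap, yet the log2 fold change of -0.16 ± 0.07 did not pass (SE, limma adjusted p = 0.0852), and its size rested on single libraries. It was -0.06 without the shared Cal27-shGRK2 library (adjusted p = 0.598) and -0.25 without Cal27-shGRK2 replicate 2 (adjusted p = 0.0302). PSME1 (PA28 alpha), its partner in the same cap, had 157.1 and 178.6 FPKM in Cal27-shGRK2 cells, against 167.9, 182.7 and 176.4 FPKM in Cal27 cells. These overlapped, with a log2 fold change of -0.07 and a 95% interval of -0.21 to 0.08 (limma adjusted p = 0.501), and the estimate was 0.03 without the shared Cal27-shGRK2 library. PSME4 (PA200), a large nuclear activator and the lowest of the 4, had 23.4 and 24.1 FPKM in Cal27-shGRK2 cells, against 27.5, 27.6 and 24.5 FPKM in Cal27 cells (log2 fold change -0.15, limma adjusted p = 0.121).

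PSME1 (chr14:24136158-24138967, plus strand) and PSME2 (chr14:24143362-24147570, minus strand) are neighbours 4395 bases apart. The deposited locus record of PSME2 also holds IRF9, and 2 pseudogenes named after PSME2 are annotated elsewhere, which makes its estimate less certain. The inhibitor gene PSMF1 (PI31), which can bind the open end of the core, had 121.3 and 116.0 FPKM in Cal27-shGRK2 cells, against 106.3, 137.0 and 123.8 FPKM in Cal27 cells. The wide spread of its Cal27 libraries covers both Cal27-shGRK2 values (log2 fold change -0.04, limma adjusted p = 0.805).

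None of the 6 ATPases of the 19S base passed the test, and none had an unadjusted limma p below 0.05. Of all 13377 genes tested, 5258 were below it. They averaged 108 FPKM (PSMC1) to 195 FPKM (PSMC3) in Cal27-shGRK2 cells, and 103 FPKM (PSMC1) to 186 FPKM (PSMC3) in Cal27 cells, with log2 fold changes from -0.08 (PSMC4) to 0.11 (PSMC5). PSMC5 was the ATPase whose groups did not overlap, with 171.4 and 179.4 FPKM in Cal27-shGRK2 cells, against 160.2, 165.2 and 160.4 FPKM in Cal27 cells (limma adjusted p = 0.159). It passed with a common total (0.17, limma adjusted p = 0.0109). PSMC1 has 13 annotated pseudogenes named after it, so its estimate may share fragments with them.

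None of the 11 non-ATPase subunits of the 19S particle passed, and PSMD2 alone had an unadjusted limma p below 0.05. Of all 13377 genes tested, 5258 were below it. PSMD2, a scaffold of the base that binds ubiquitin-like domains, was the highest of them, with 403.3 and 421.5 FPKM in Cal27-shGRK2 cells, against 373.1, 384.9 and 359.6 FPKM in Cal27 cells. All Cal27-shGRK2 libraries were above all Cal27 libraries, and the log2 fold change of 0.15 ± 0.06 (SE) had a limma adjusted p of 0.0793. It passed without Cal27 replicate 1 (limma adjusted p = 0.0398) and with a common total (0.20, adjusted p = 0.00552). PSMD2 also passed with quantile normalization (limma adjusted p = 0.00624), median-of-ratios scaling (0.0282) and the identical columns kept (0.0294). Leaving out 1 library gave 0.12 to 0.18. PSMD7, a lid subunit that pairs with PSMD14, was the lowest in fold change, with 106.2 and 115.9 FPKM in Cal27-shGRK2 cells, against 124.3, 116.4 and 121.7 FPKM in Cal27 cells (log2 fold change -0.12, limma adjusted p = 0.168). PSMD14, which cuts ubiquitin chains from the substrate, had 130.7 and 138.3 FPKM in Cal27-shGRK2 cells, against 134.8, 129.3 and 130.1 FPKM in Cal27 cells, with overlapping groups. The ubiquitin receptor PSMD4 averaged 157.8 ± 5.87 FPKM (SD, n = 2) in Cal27-shGRK2 cells and 153.4 ± 2.62 FPKM (SD, n = 3) in Cal27 cells.

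**Figure D4:**
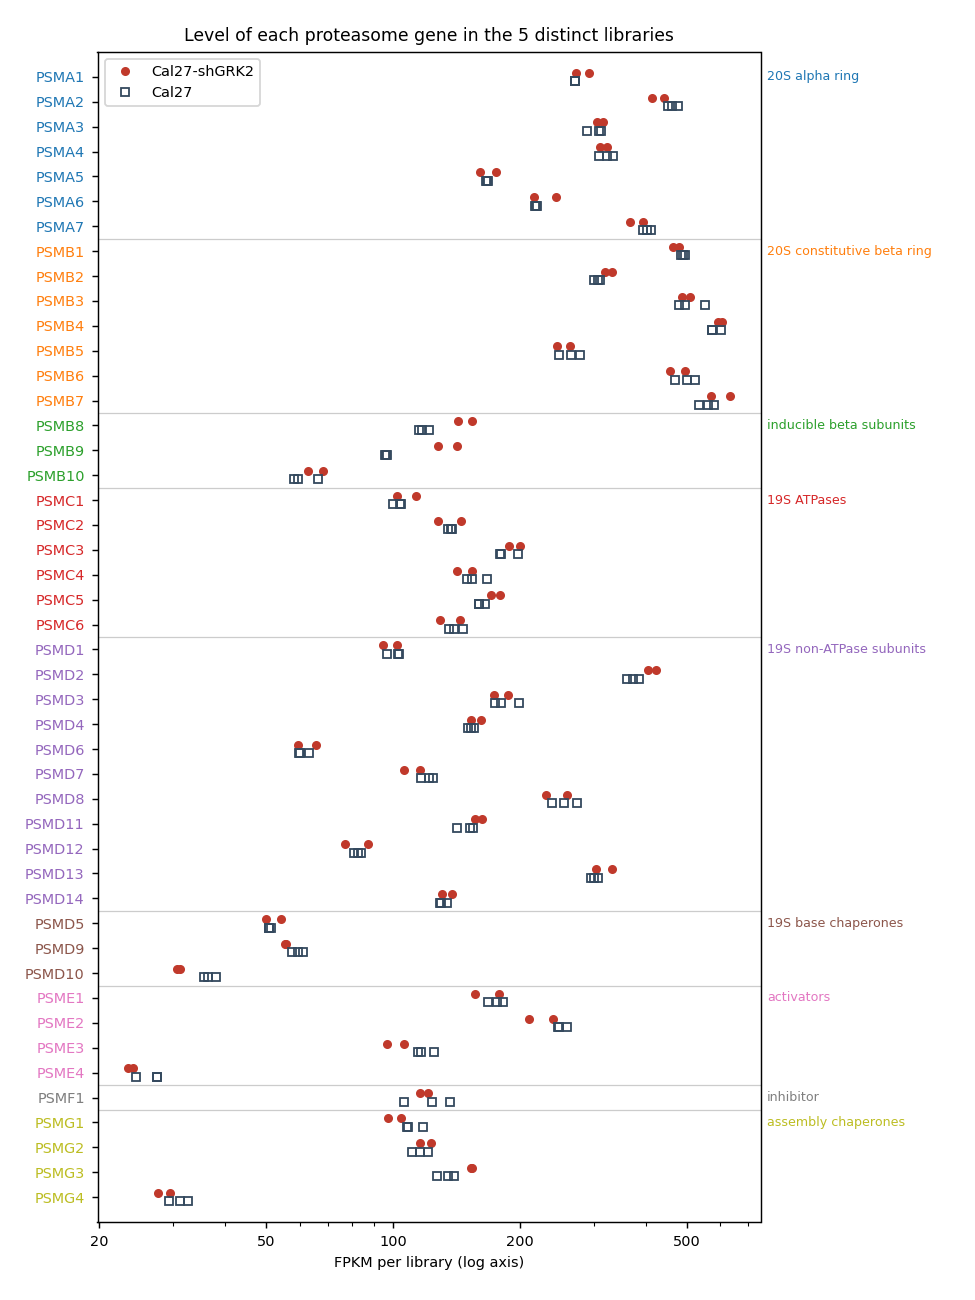
FPKM on a log axis of the 46 proteasome genes in each library, grouped by role, with circles for Cal27-shGRK2 and squares for Cal27 libraries. PSMB7 and PSMB4 lie highest, and PSME4, PSMG4 and PSMD10 lowest, in both groups.

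Of the chaperones that help build the 19S base, PSMD10 fell while PSMD5 and PSMD9 did not pass the test. PSMD10 (gankyrin, chrX:108084207-108091618, minus strand), which holds the ATPase PSMC4 during assembly and also binds the RB1 and MDM2 proteins, had 30.6 and 31.2 FPKM in Cal27-shGRK2 cells, against 36.3, 35.5 and 38.1 FPKM in Cal27 cells. Both Cal27-shGRK2 libraries were below all Cal27 libraries, and the log2 fold change of -0.24 ± 0.06 (SE, limma adjusted p = 0.00985) was the lowest of the 46. With 1 library fewer the adjusted p was 0.0544 without Cal27 replicate 2, 0.0801 without the shared Cal27-shGRK2 library, and 0.054 without Cal27-shGRK2 replicate 2. PSMD10 has 3 annotated pseudogenes named after it. PSMD9 had 55.7 and 55.4 FPKM in Cal27-shGRK2 cells, against 57.4, 61.1 and 59.7 FPKM in Cal27 cells (log2 fold change -0.10, limma adjusted p = 0.266). PSMD5 had 49.9 and 54.2 FPKM in Cal27-shGRK2 cells, against 50.9, 51.5 and 50.9 FPKM in Cal27 cells, an overlap of the groups.

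The chaperones of the 20S core work in pairs, PSMG1 with PSMG2 and PSMG3 with PSMG4, and in neither pair did both genes pass the test. PSMG3 had 153.5 and 153.8 FPKM in Cal27-shGRK2 cells, against 127.1, 139.8 and 135.3 FPKM in Cal27 cells. It rose by 0.20 ± 0.06 on the log2 scale (SE, limma adjusted p = 0.0246) with no overlap of the groups. The call was lost without Cal27 replicate 0 (adjusted p = 0.117), Cal27 replicate 2 (0.0602), the shared Cal27-shGRK2 library (0.112) or Cal27-shGRK2 replicate 2 (0.114). Its partner PSMG4 had 29.5 and 27.7 FPKM in Cal27-shGRK2 cells, against 31.3, 29.4 and 32.7 FPKM in Cal27 cells, an overlap (log2 fold change -0.12, limma adjusted p = 0.216). PSMG3 overlaps PSMG3-AS1 on the opposite strand, and PSMG3-AS1 was below 5 FPKM in every library. PSMG1 had 97.6 and 104.5 FPKM in Cal27-shGRK2 cells, against 117.7, 108.3 and 108.8 FPKM in Cal27 cells, with no overlap (log2 fold change -0.14, limma adjusted p = 0.112). PSMG2 had 115.7 and 123.2 FPKM in Cal27-shGRK2 cells, against 121.3, 111.3 and 115.8 FPKM in Cal27 cells, with overlapping groups.

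The order of the 46 genes by mean FPKM was nearly the same in Cal27-shGRK2 and Cal27 cells, with a Spearman rho of 0.986 across genes, which share their libraries and are not independent. Within the roles, 26 of 37 pairs of neighbours in the order of mean levels had ranges over all 5 libraries that did not overlap. The summed FPKM of the 46 genes was 9407 and 10060 in Cal27-shGRK2 cells, against 9540, 9868 and 9588 in Cal27 cells, which was 1.59% and 1.63% of all FPKM in Cal27-shGRK2 libraries, against 1.56%, 1.53% and 1.54% in Cal27 libraries.

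In the authors' deposited table, 0 of the 46 genes were marked significant by Cuffdiff, against 15.4% of the 18678 genes. The smallest q-value among them in the authors' deposited table was 0.0585 (PSMD10). At an unadjusted Cuffdiff p below 0.05 the authors' deposited table held 5 of the 46, beside 4392 of all 18678 genes. The 5 were PSMB8, PSMB9, PSMD10, PSME3 and PSMG3, which are the 5 called by limma from the same libraries. Besides PSMD10, their Cuffdiff q-values were 0.0772 (PSMG3), 0.157 (PSMB9), 0.158 (PSMB8) and 0.194 (PSME3). The limma adjusted p-values of PSMB8 and PSMB9 were far smaller than these.

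Genes around the proteasome were taken from lists by pathway, whose counts stand beside 15.0% of all genes tested higher and 14.6% lower. Of 17 genes for proteins that bind the proteasome or bring substrates to it, 1 rose and 16 did not pass. Their median log2 fold change was 0.02. The riser was KIAA0368 (ECM29, an adaptor that bridges core and cap), at 0.28 (limma adjusted p = 0.00534, or 0.116 without Cal27-shGRK2 replicate 2). A list of 10 tested genes covered maturation of the core, the NFE2L1 (NRF1) route and the separate factor NFE2L2 (NRF2). The NRF1 route raises proteasome genes together when the protease is inhibited. Of the 10 genes, 2 rose, 1 fell (NFE2L2) and 7 did not pass, close to the 29.6% called over all genes. NGLY1, which deglycosylates NRF1, was at 0.21 (limma adjusted p = 0.0275) and SEL1L at 0.23 (adjusted p = 0.036). NGLY1 did not pass without Cal27 replicate 2 (adjusted p = 0.0591), nor SEL1L without Cal27 replicate 0 (0.114), and neither passed without either Cal27-shGRK2 library (0.0789 to 0.209). NFE2L2 (NRF2) was at -0.27 (limma adjusted p = 0.00341). NFE2L1 itself had a log2 fold change of 0.11 (limma adjusted p = 0.222, or 0.0472 with a common total), and POMP, which matures the core, -0.10 (adjusted p = 0.265). Of 6 ubiquitin and ubiquitin-activating genes, RPS27A fell by 0.18 (limma adjusted p = 0.0273) and 5 did not pass. RPS27A did not pass with a common total (0.0835), nor without Cal27 replicate 0 or 2 or either Cal27-shGRK2 library (0.0676 to 0.142).

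Genes of the steps after the proteasome, which trim and load its peptides on HLA class I, had a median log2 fold change of 0.16, with 4 of 9 higher, none lower and 5 not passing, against 15.0% of all genes higher and 14.6% lower. The 4 were the peptidases ERAP1 (0.40) and ERAP2 (0.30), the editor TAPBPL (0.38) and the class I light chain B2M (0.30). B2M had 2166 and 2212 FPKM in Cal27-shGRK2 cells, against 1874, 1645 and 1840 FPKM in Cal27 cells. TAP1, which lies within the bounds of PSMB9, had 65.7 and 70.5 FPKM in Cal27-shGRK2 cells, against 58.4, 66.4 and 58.1 FPKM in Cal27 cells. Its groups overlapped (log2 fold change 0.16, limma adjusted p = 0.109), and it passed without Cal27 replicate 1 (adjusted p = 0.0135) and with a common total (adjusted p = 0.0142), while leaving out 1 library gave 0.11 to 0.22. TAPBP, at 0.16 (limma adjusted p = 0.0882), also passed in both of these. ERAP1 and ERAP2 did not pass without Cal27-shGRK2 replicate 2 (limma adjusted p = 0.0649 and 0.0931).

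Of 11 regulators known to act on the immunoproteasome genes, 3 were higher, 2 lower and 6 did not pass, against 29.6% of all genes called in either direction. NLRC5, the transactivator of class I genes and of PSMB9, had 21.3 and 21.6 FPKM in Cal27-shGRK2 cells, against 12.9, 13.4 and 13.2 FPKM in Cal27 cells (log2 fold change 0.66, limma adjusted p = 2.07e-06). IRF9, the DNA-binding part of the complex that reads ISRE elements after type I interferon, had 2.49 and 2.60 FPKM in Cal27-shGRK2 cells, against 15.6, 12.1 and 11.0 FPKM in Cal27 cells (log2 fold change -1.96, limma adjusted p = 5.13e-07). The groups lay far apart in both genes, in opposite directions. JAK1 (0.36) and SOCS1 (0.46) were also higher, and IFNGR1 (-0.29) lower. IFNGR1 did not pass without the shared Cal27-shGRK2 library (limma adjusted p = 0.0563), nor SOCS1 without Cal27-shGRK2 replicate 2 (0.107). IRF1, which binds the PSMB9 promoter, had 39.4 and 45.7 FPKM in Cal27-shGRK2 cells, against 38.8, 38.9 and 36.3 FPKM in Cal27 cells (log2 fold change 0.15, limma adjusted p = 0.125). It passed with a common total (adjusted p = 0.0263) and, at 0.26, without the shared Cal27-shGRK2 library (0.0474), but was at 0.05 without Cal27-shGRK2 replicate 2 (0.73).

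**Figure D5:**
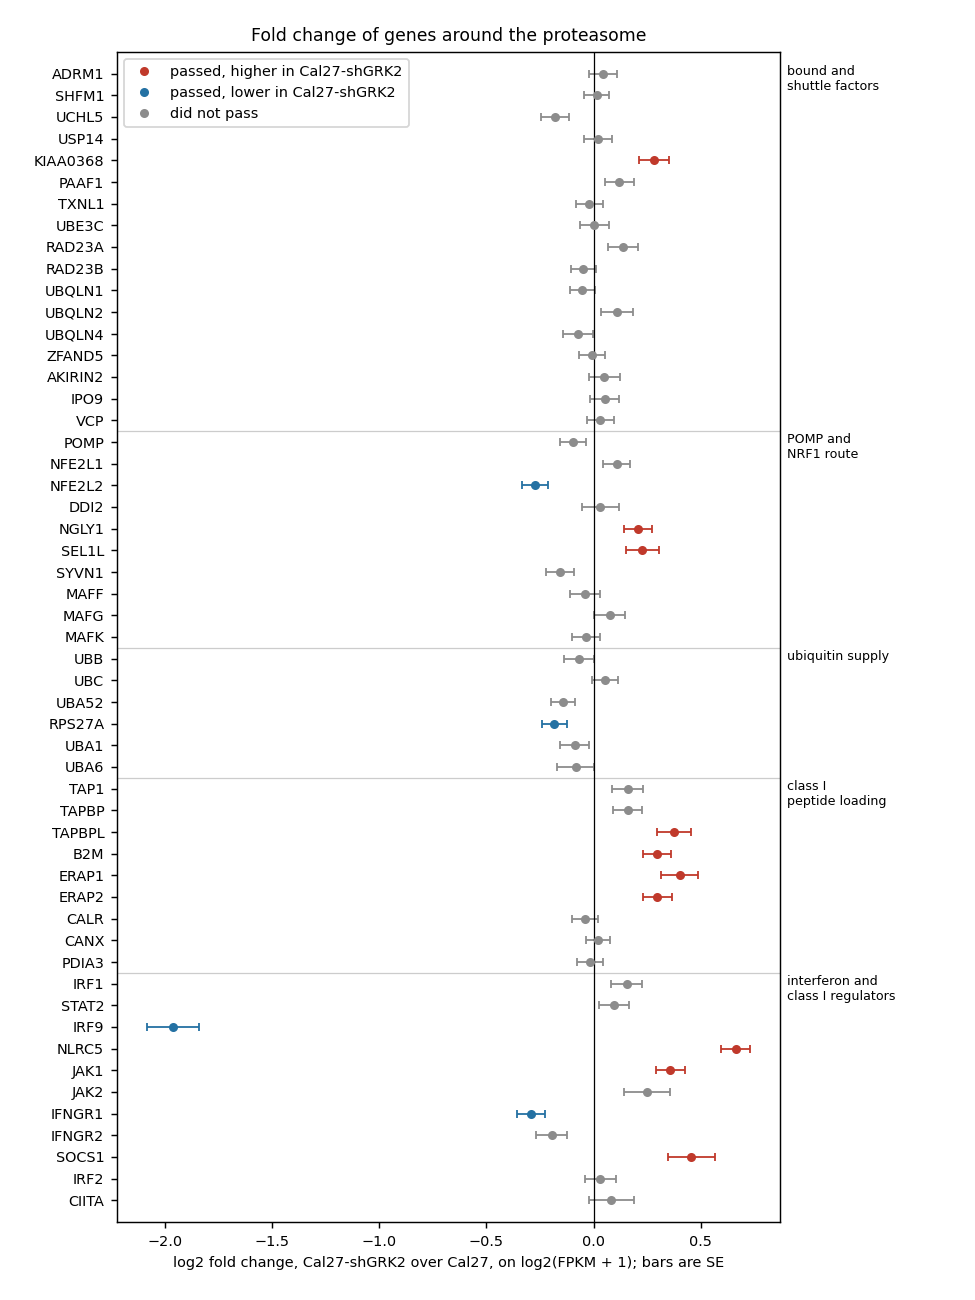
Log2 fold change of Cal27-shGRK2 over Cal27 for each gene of the 5 lists around the proteasome, with bars for the SE. Bound and shuttle factors lie between -0.18 (UCHL5) and 0.28 (KIAA0368), while the regulators spread from -1.96 (IRF9) to 0.66 (NLRC5).

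Markers of other cell types were read beside these results, since in bulk RNA fewer cells of a type and less RNA per cell cannot be told apart. Of 10 blood-cell markers, 4 had a row and 2 passed the filter, both higher, against 15.0% of all genes tested. The summed FPKM of the 4 was 372 to 402 in Cal27-shGRK2 libraries and 229 to 260 in Cal27 libraries. Nearly all of it was CD74, the class II invariant chain, which carcinoma cells can also make. CD68 had 4.30 and 3.52 FPKM in Cal27-shGRK2 cells, against 0.766, 1.18 and 1.09 FPKM in Cal27 cells (log2 fold change 1.29, limma adjusted p = 7.29e-07). ITGAM, under the filter, had 0.724 and 0.636 FPKM in Cal27-shGRK2 cells, against 0.465, 0.408 and 0.435 FPKM in Cal27 cells, with no overlap. The defining marker PTPRC was not analysed here, and CD14 had 0.527 to 0.732 FPKM in Cal27-shGRK2 libraries and 0.706 to 1.15 FPKM in Cal27 libraries. Fibroblast markers with a row (4 of 7) summed to 4.38 to 4.46 FPKM in Cal27-shGRK2 libraries and 4.35 to 4.71 FPKM in Cal27 libraries. The endothelial marker with a row, CDH5 (1 of 4), had 7.01 and 6.80 FPKM in Cal27-shGRK2 cells, against 3.57, 3.97 and 3.50 FPKM in Cal27 cells. Of 8 squamous and epithelial markers, 2 were higher and 6 lower, against 15.0% of all genes higher and 14.6% lower. The basal keratin KRT14 had 0.235 and 0.160 FPKM in Cal27-shGRK2 cells, against 19.3, 20.9 and 16.5 FPKM in Cal27 cells. DSG3 had 0.773 and 0.765 FPKM in Cal27-shGRK2 cells, against 2.40, 2.44 and 2.45 FPKM in Cal27 cells. EPCAM and CDH1 were the 2 that were higher. The 8 markers summed to 1460 to 1480 FPKM in Cal27-shGRK2 libraries and 3210 to 3570 FPKM in Cal27 libraries. Their part in the proteasome results was not tested.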

How the data were processed

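Polyadenylated RNA of Cal27-shGRK2 and Cal27 cells was sequenced with a stranded kit, per the labels' protocols. The submitters' processing notes name Cuffdiff 2.2.1, TopHat2 2.1.0, Bowtie2 2.2.6 and the build hg38. The annotation and strand setting were not given in the sources used here. FPKM per library was deposited, with the authors' log2 fold change, test statistic (a score), p-values and q-values, per the file headers. FPKM of overlapping genes and of genes with close copies are estimates that can share signal. A deposited FPKM of 0.0001 was read as 0. Depth is unknown, so no counting error is given.

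From these values log2(FPKM + 1) was computed over 5 distinct libraries, for genes averaging 1 FPKM or more, and tested with limma 3.58.1 in R 4.3.3 (trend, robust, 3 residual degrees of freedom, two-sided, Benjamini-Hochberg over all 13377 genes, threshold 0.05). The script was tested on simulated data. Within-library ratios were tested by exact permutation. Members were found by symbol. All 46 are named, and values per library are given for the inducible genes, their counterparts and those largest in change in their role. PSMA8 and PSMB11 were not analysed here, and 1 regulator is not reported here. The members and gene lists were chosen with earlier results of these data known. Alternatives covered pseudocount, filter, scaling, limma settings, a replicate block, the identical columns and each library left out.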

Additional observations from a re-analysis of the deposited data

How the results depend on the processing

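PSMB8 and PSMB9 passed under all 14 alternatives, with highest adjusted p-values (limma) of 0.0259 and 0.00267, both without Cal27-shGRK2 replicate 2. The number of proteasome genes higher was 3 as reported and 9 with a common total (2850 of all 13377 genes). It was 8 with quantile normalization (2100 of 13377 genes). By the rule that groups do not overlap, which was chosen after seeing the data, it was 8 (25.9% of all genes). The number lower was 2 as reported and 7 with the identical columns kept (2791 of 13374 genes). It was 1 with limma without trend and not robust (1592 of 13377 genes). By the rule that groups do not overlap, it was 9 (27.4% of all genes). Leaving out 1 library gave 0 to 2 genes lower (0 without the shared Cal27-shGRK2 library, where 1 gene had an unadjusted limma p below 0.05 and a negative sign) and 2600 to 4028 genes past the threshold in all. PSMB10 over PSMB7 was then -0.039 to 0.019. Without trend and robust settings PSME3 (limma adjusted p = 0.0629) and PSMG3 (0.0733) did not pass, and PSME2 passed with identical columns kept (0.0248) and with median-of-ratios scaling (0.0381).

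Deviations of same-numbered libraries from their group means correlated at 0.08 and 0.017, and those of other pairs at -0.08 to 0.071. With 2 distinct Cal27-shGRK2 libraries, the deviations of 1 mirror those of the other. These values therefore cannot decide whether replicate numbers pair the libraries. The labels tie the numbers to no batch. A fit with the replicate number as a block called 3960 genes and again 3 proteasome genes higher and 2 lower.

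Over 14 alternatives 25 of 46 proteasome genes never changed sign, and no gene that did was called in any of them. With a common total, log2 fold changes of the other sign were 0.033 (PSMA4), 0.001 (PSMB1), 0.026 (PSMB3), 0.005 (PSMB5), 0.049 (PSMC2), 0.017 (PSMC6), 0.018 (PSMD1), 0.025 (PSMD3), 0.047 (PSMD12) and 0.019 (PSMF1). With quantile normalization they were 0.047 (PSMA4), 0.031 (PSMB1), 0.073 (PSMB3), 0.009 (PSMB5), 0.016 (PSMB6), 0.033 (PSMC2) and 0.019 (PSMD12). In the replicate block they were -0.001 (PSMA3), 0.028 (PSMB3), 0.026 (PSMD3) and 0.048 (PSMF1), and with identical columns kept -0.013 (PSMA5). Leaving out 1 library gave ranges of -0.001 to 0.054 (PSMA3), -0.053 to 0.004 (PSMA4), -0.054 to 0.07 (PSMA5), -0.018 to 0.158 (PSMA6), -0.071 to 0.028 (PSMB3), -0.009 to 0.146 (PSMC1), -0.098 to 0.082 (PSMC2), -0.12 to 0.041 (PSMC6), -0.093 to 0.016 (PSMD1), -0.085 to 0.026 (PSMD3), -0.033 to 0.084 (PSMD5), -0.038 to 0.103 (PSMD6), -0.142 to 0.026 (PSMD8), -0.097 to 0.08 (PSMD12), -0.008 to 0.073 (PSMD14), -0.16 to 0.025 (PSME1), -0.134 to 0.048 (PSMF1) and -0.005 to 0.085 (PSMG2). The cause of these changes was not tested.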

Other observations

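Rows whose symbols begin like those of the proteasome genes but that are no subunits gave these values. PSMA3-AS1, an RNA transcribed opposite PSMA3, had 11.3 and 10.8 FPKM in Cal27-shGRK2 cells, against 13.8, 12.6 and 13.5 FPKM in Cal27 cells, a fall of -0.25 on the log2 scale (limma adjusted p = 0.0176), while PSMA3 itself was at 0.03. PSMC3IP, a partner of the meiotic recombinase DMC1 and no proteasome gene, had 20.6 and 21.1 FPKM in Cal27-shGRK2 cells, against 24.3, 25.3 and 24.3 FPKM in Cal27 cells (log2 fold change -0.23, limma adjusted p = 0.0135). In both genes every Cal27-shGRK2 library was below every Cal27 library. PSMB8-AS1, PSMG3-AS1, PSMD5-AS1 and PSMC1P1 did not pass the test.

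Among the proteasome promoters, 61.2% of the 49 windows held the antioxidant response pattern TGANNNNGC on either strand, against 41.8% of all windows. CCAAT was in 38.8% and 34.6%, and the NF-kappaB pattern (GGGA, any 4 bases and CC) in 22.4% and 25.6%.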
